A study of Caenorhabditis elegans with 24 samples.

Results

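The genes described here are 36 Caenorhabditis elegans genes of the cell cycle and of DNA replication, taken by symbol from a list of names out of 46778 gene IDs in the count table. All 36 names matched 1 gene ID each, and all 36 were among the 16887 genes that passed the filter on low counts. They comprise 6 subunits of the replicative helicase, 3 origin licensing factors, 3 genes of the replication fork and nucleotide supply, 4 kinase and phosphatase genes, 7 cyclins, 2 inhibitors of cyclin-dependent kinases, 2 regulators of G1 transcription, 4 mitotic and centriole kinases, and 5 genes of the kinetochore and of anaphase. Polyadenylated RNA was sequenced from wild-type hermaphrodites with Venus-labelled distal tip cells (DTCs), grown at 20 °C on the bacterial strain OP50. At each of 4 stages (late in the L3 larva, early and late in the L4 larva, and in the adult) a Venus-positive fraction labelled as DTCs and a non-fluorescent fraction of all other cells were taken, with 3 libraries a group, 8 groups and 24 libraries. Each RNA sample came from 30000 to 60000 cells, so a library pools many animals. The labels do not name the promoter that drives Venus.

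The cell cycle copies DNA in S phase and divides it in mitosis. Licensing factors load the MCM helicase onto origins in G1, cyclins switch on their kinase partners to start S phase and mitosis, and the anaphase-promoting complex ends mitosis by having cyclins and the separase inhibitor destroyed. CIP/KIP inhibitors such as CKI-1 hold cyclin-dependent kinases off in cells that have stopped dividing. The DTC is a somatic cell that no longer divides once it is born, while the germ cells that it encloses proliferate throughout the stages sampled, and oocytes store transcripts for the divisions of the embryo. The comparison of the fractions asked how the genes of division stood in RNA from a non-dividing leader cell, and the comparison of the stages how they changed as its migration ended.

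Total counts per library ran from 8391423 to 18045720, and levels below are counts scaled to library size (CPM) after TMM scaling, which corrects library size for differences in composition. The summed level of 12 DTC markers was 30350 to 58890 CPM in the DTC libraries of the 3 larval groups and 1033 to 7578 CPM in the libraries of other cells. In the adult DTC libraries it was 2956 to 4115 CPM, so the adult label rests on far less of its own marker RNA. The Notch ligand gene lag-2, a defining DTC marker, averaged 201, 205, 270.3 and 50.3 CPM in the DTC fraction from late L3 to adult and at most 1.26 CPM in any group of other cells. In adults the summed level of the DTC markers in the DTC fraction was 2.69 times that in other cells. There mig-21 averaged 176.7 CPM in the DTC fraction against 1.60 CPM in other cells, nid-1 442.9 against 18.6 and gon-1 9.83 against 0.181. Some other markers of the list separated the adult fractions less. In adults hlh-12 averaged 3.46 CPM in the DTC fraction against 2.21 CPM in other cells, ina-1 76.3 against 40.8 and dgn-1 77.7 against 42.8. Of the DTC markers inx-8 alone stood lower in adult DTCs, at 278 against 427 CPM. RNA of other tissues was present too: 28 germline markers summed to 3140 to 3327 CPM in the late L3 DTC libraries and to 756 to 1300 CPM in the adult ones, and no germline marker was at 0 counts in any group. The 17 oocyte markers summed to 748 to 880 CPM in late L3 DTC libraries and to 13830 to 17150 CPM in adult ones, and 8 body wall muscle markers reached 22650 to 28850 CPM there. The muscle sum in DTCs was 0.212 times that of other cells at late L3 and 1.44 times in adults. For intestine markers the ratios were 0.439 and 1.74. The adult ratio was 1.16 for sheath and spermatheca, 1.01 for sperm, 0.915 for neuron, 0.728 for oocyte, 0.615 for hypodermis and seam and 0.483 for coelomocyte markers. Most of the adult oocyte sum came from perm-2 and perm-4. They averaged 0.514 and 0.267 CPM in late L3 DTCs, 5682 and 7164 in adult DTCs, and 5309 and 8118 in adult other cells. No other oocyte marker averaged over 355.9 CPM in adult DTCs, and each of them was lower there than in adult other cells. In bulk RNA, fewer cells of a type and less RNA per cell cannot be told apart. Among the other-cell libraries, late L3 replicate 3 stood apart, with a score of -19.16 on the first principal component against 114.4 and 107.5 for replicates 1 and 2, and with 1638 CPM of 20 sperm markers against 13.6 and 22.1 CPM.

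The 36 genes were about as abundant in both fractions at late L3 and were lower in the DTC fraction by adulthood. Their summed level in the late L3 DTC libraries was 1882, 1793 and 1676 CPM, and in the late L3 libraries of other cells 1797, 1963 and 1559 CPM. In adults it was 847, 1340 and 748 CPM in the DTC fraction and 3390, 2799 and 1824 CPM in other cells, and the groups did not overlap. The DTC level divided by that of other cells was 1.01 at late L3, 0.788 at early L4, 0.561 late in L4 and 0.366 in adults. Over the same 4 stages the ratio for the 28 germline markers was 1.46, 0.845, 0.703 and 0.348. These ratios rest on TMM scaling. Without TMM factors the mean sums of the 36 genes were 1892, 1196, 958.3 and 688.1 CPM in the DTC fraction. In other cells they were then 2019, 2294, 2044 and 2616 CPM, so the fractions stood farther apart at each of the 4 stages than with TMM scaling.

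**Figure D1:**
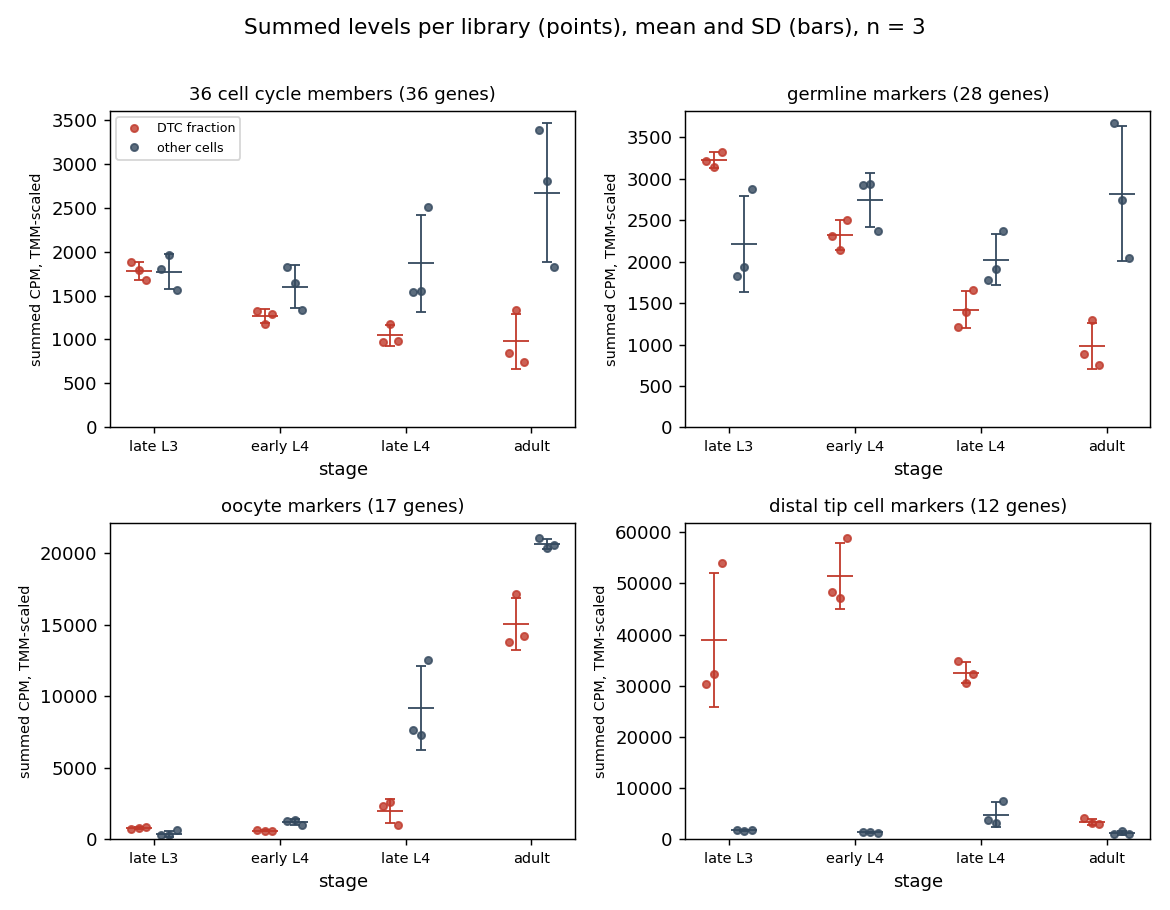
Summed TMM-scaled CPM (vertical axes) per library at each stage (horizontal axes) for the 36 genes and for germline, oocyte and DTC markers, with red for the DTC fraction and dark blue for other cells. Bars give the mean and SD of 3 libraries. The 36 genes and the germline markers both had their lowest group mean in adult DTCs, at 978 and 982 CPM. For the 36 genes, adult DTC replicate 2 lay above the late L4 DTC mean of 1047 CPM.

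Tested gene by gene with edgeR's quasi-likelihood test, and called where p, adjusted over all 16887 genes by Benjamini and Hochberg's method, was under 0.05, 0 of 36 genes differed between the fractions at late L3, where 13.4% of all tested genes were called. At late L3, 4 of the 36 had an unadjusted p under 0.05 and DESeq2 called 2, cdk-1 lower and orc-2 higher. Without replicate 3 of late L3 other cells, the library that stood apart, edgeR called 1, cyb-2.2 higher in the DTC fraction (adjusted p = 0.042). At early L4, 2 of 36 were called, both lower in the DTC fraction, where 11% of all genes were called and 1.65% were called lower. At late L4 the count was 4 of 36, all lower, against 11.8% of all genes called and 2.61% called lower. In adults 18 of 36 were called, all lower, against 13.3% of all genes called and 5.12% called lower. In the mean over the 4 stages 16 of 36 were called, all lower, against 30.6% called and 14.3% called lower. As shares of the 36 genes, the lower calls came to 5.56% at early L4, 11.1% late in L4 and 50% in adults, above the shares of all genes called lower. With all libraries edgeR called 0 of the 36 higher at any stage.

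The median log2 fold change of the 36 genes was 0.11 at late L3, -0.32 at early L4, -0.82 late in L4 and -1.37 in adults. Over all tested genes the median was -0.03, -0.35, -0.14 and 0.11, so the early L4 median of the 36 lay beside that of all genes. With RLE scaling the late L3 median of the 36 turned to -0.19, against -0.34 for all genes, and the adult one was -1.31 against 0.17. Every DTC library lay below every library of other cells for 6 genes at late L3, 14 at early L4, 14 late in L4 and 19 in adults, and the same held for 15.9%, 27.8%, 18.8% and 9.24% of all tested genes. The reverse, every DTC library above, held for 6, 3, 2 and 0 of the 36 genes and for 21%, 21.1%, 18.3% and 17.3% of all tested genes. The adult counts depended on single libraries: without DTC adult replicate 1 there were 10 called genes, without DTC adult replicate 3 there were 8, and without replicate 1 of adult other cells there were 11. When the adult groups were fitted alone, bub-1 and mcm-4 were called and the other 16 were not.

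**Figure D2:**
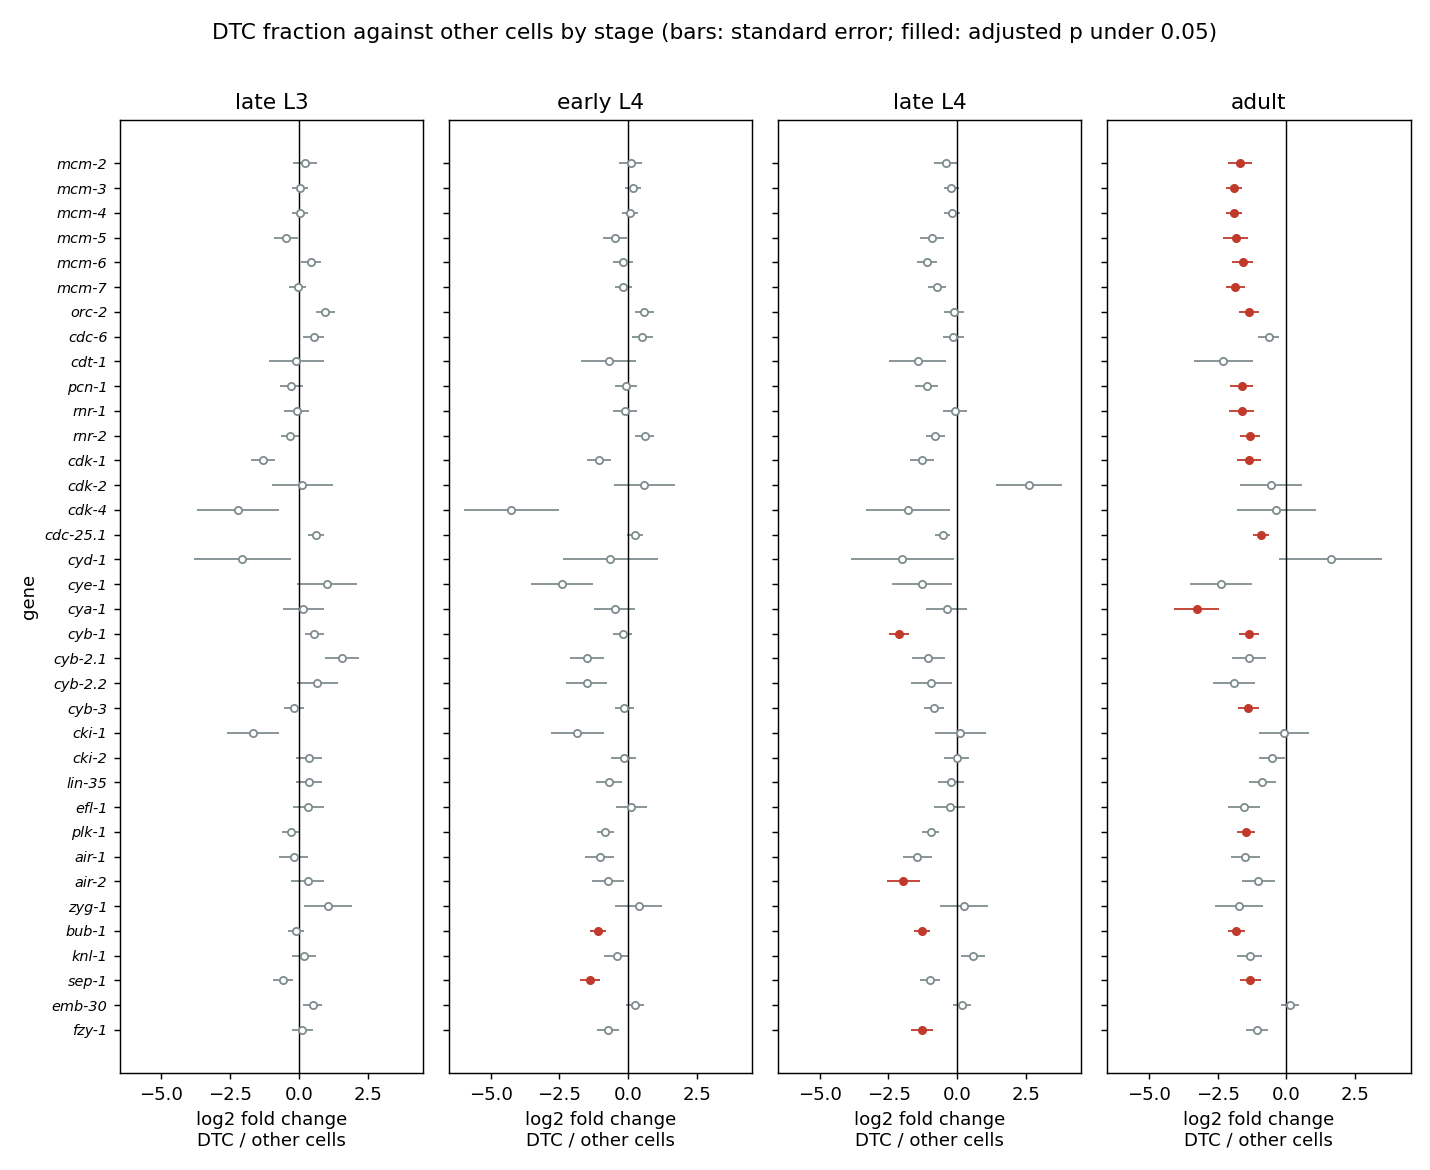
Log2 fold change of the DTC fraction over other cells (horizontal axes) for each of the 36 genes (vertical axis) at 4 stages, from edgeR, with bars for the standard error and filled red points for adjusted p under 0.05. The points spread around 0 at late L3, where 0 are filled, and 34 of 36 lie below 0 in adults, where 18 are filled.

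The 6 helicase genes mcm-2 to mcm-7 encode the ring that unwinds DNA at the fork, and edgeR called all 6 lower in the DTC fraction in adults and 0 of them at any larval stage. DESeq2 called mcm-5 (adjusted p = 0.0485), mcm-6 (adjusted p = 0.00166) and mcm-7 (adjusted p = 0.0194) lower at late L4, where edgeR called mcm-6 with RLE scaling (adjusted p = 0.0146) and without DTC late L4 replicate 2 (adjusted p = 0.0233). mcm-3 (chromosome V, 15056719 to 15059599 on the ce11 build) held 95.4, 96.5 and 90.3 CPM in the late L3 DTC libraries and 97.3, 107.6 and 73.2 CPM in late L3 other cells. In adults it held 39.5, 63.3 and 40.5 CPM in the DTC fraction and 249.6, 195.8 and 91.3 CPM in other cells. The late L3 groups overlapped and the adult groups did not, with the adult fold change at -1.91 ± 0.29 on the log2 scale (± standard error here and below, adjusted p = 0.00062). For mcm-4 (chromosome I, 2318291 to 2321817) the adult libraries held 22.7, 43.1 and 33.9 CPM in the DTC fraction and 169, 94.5 and 111 CPM in other cells. That was a change of -1.91 ± 0.30 (adjusted p = 0.000721), again with no overlap. The other 4 lay between -1.59 ± 0.37 for mcm-6 (adjusted p = 0.00764) and -1.85 ± 0.33 for mcm-7 (adjusted p = 0.00191), with mcm-5 at -1.84 ± 0.45 (adjusted p = 0.0106) and mcm-2 at -1.69 ± 0.44 (adjusted p = 0.016). The summed level of the 6 was 531 to 580.5 CPM in late L3 DTC libraries, 321 to 381 at early L4, 236 to 289.5 late in L4 and 189 to 343 in adults. In other cells it was 441 to 612 CPM at late L3, 306 to 388 at early L4, 335 to 506 late in L4 and 577 to 1075 in adults.

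Of the licensing factors, orc-2 encodes a subunit of the origin recognition complex, and CDC-6 and CDT-1 help to load the helicase. orc-2 (chromosome II, 10873931 to 10877683) held 27.5, 27.1 and 28.2 CPM in late L3 DTC libraries and 15.1, 15.1 and 12.8 CPM in other cells, groups that did not overlap although the change of 0.95 ± 0.35 was not called (adjusted p = 0.0794). In adults the order was turned round, with 14.5, 11.1 and 4.95 CPM in the DTC fraction against 28.9, 30.1 and 19 CPM in other cells, and the change of -1.35 ± 0.36 was called (adjusted p = 0.0171). That call was lost without DTC adult replicate 3, the library with the lowest value. edgeR with all libraries did not call cdc-6 at any stage, with changes from -0.65 ± 0.38 in adults to 0.53 ± 0.38 at late L3; without replicate 3 of adult other cells it was called lower in adults (-1.15, adjusted p = 0.0286). cdt-1 was low throughout, at 0.0948 to 14.4 CPM, and its adult change of -2.29 ± 1.07 was not called (adjusted p = 0.161).

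At the fork, pcn-1 encodes the sliding clamp PCNA, and rnr-1 and rnr-2 encode the large and small subunits of ribonucleotide reductase, which makes the deoxynucleotides. All 3 were lower in the adult DTC fraction, at -1.63 ± 0.42 for pcn-1 (adjusted p = 0.015), -1.63 ± 0.45 for rnr-1 (adjusted p = 0.0216) and -1.32 ± 0.36 for rnr-2 (adjusted p = 0.0198). The rnr-2 libraries show where the difference lay. Its DTC level was 67.6, 60.5 and 53.6 CPM at late L3 and 66.4, 65.3 and 55.2 CPM in adults. In other cells it was 89.3, 76.0 and 61.7 CPM at late L3 and 202, 161 and 102 CPM in adults. The DTC values of the 2 stages thus overlapped, and the adult other-cell libraries were the high ones.

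Among the kinases, cdk-1 encodes the kinase that drives mitosis, CDK-4 works with cyclin D and CDK-2 with cyclin E in G1, and CDC-25.1 is a phosphatase that activates CDK-1. cdk-1 (chromosome III, 9747472 to 9748852) stood lower in the DTC fraction by a similar fold change at each stage. It held 30.7, 32.1 and 28.6 CPM in late L3 DTC libraries against 81.7, 83.1 and 62.2 CPM in other cells, and 33.6, 18.8 and 21.3 against 66.2, 40.0 and 47.7 CPM at early L4. At late L4 it held 12.8, 20.6 and 16.9 CPM against 20.99, 41.1 and 61.2 CPM, and in adults 9.08, 27.04 and 14.5 against 65.5, 22.9 and 40.9 CPM. The groups were separate at the 3 larval stages and overlapped in adults, and the stage changes were -1.31 ± 0.44, -1.06 ± 0.43, -1.29 ± 0.44 and -1.36 ± 0.44. For mcm-5 and sep-1 every DTC library lay below every other-cell library at each stage, adults included. With all groups and libraries edgeR called only the adult change of cdk-1 (adjusted p = 0.0469), a call lost under 4 of 6 left-out libraries (DTC replicates 1 and 3, other-cell replicates 1 and 3). DESeq2 called cdk-1 lower at late L3 (adjusted p = 0.00163), early L4 (adjusted p = 0.0161) and late L4 (adjusted p = 0.00486). With RLE scaling edgeR called it lower at late L3 (adjusted p = 0.0169) and late L4 (adjusted p = 0.0275). In the late L3 groups alone edgeR also called it lower (adjusted p = 0.0109). The mean of the stages was -1.26 ± 0.22 (adjusted p = 0.000185) and stayed called without any single library.

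cdk-4 (chromosome X, 13515856 to 13518911) was scarce, and 1 or more DTC libraries held 0 counts at late L3 and early L4. The 3 early L4 DTC libraries held 3 counts together against 118 in other cells, a CPM ratio of 0.0445 with a 95% counting interval of 0.00904 to 0.133. Over the 4 stages the geometric mean of the ratios was 0.206, or 0.139 to 0.272 with the early L4 interval carried through, which covers counting error only. edgeR called the mean of the stages lower (adjusted p = 0.039), and 8 of 24 left-out libraries ended that call (DTC late L3 replicate 1, early L4 replicate 2 and late L4 replicate 2, and other-cell late L3 replicates 1 and 2, early L4 replicates 1 and 3 and late L4 replicate 2). cdk-2 was the lowest member, with 415 counts in all 24 libraries and 0 to 2.65 CPM. edgeR with all libraries called it in no comparison of the fractions, while DESeq2 called it higher in the DTC fraction at late L4 (2.45, adjusted p = 0.0488), as did edgeR without replicate 3 of late L4 other cells (4.81, adjusted p = 0.0472). cdc-25.1 stood at 56.6, 67.8 and 76.7 CPM in late L3 DTC libraries against 41.96, 40.9 and 49.6 CPM in other cells, and at 25.8, 32.0 and 25.9 against 77.0, 37.6 and 43.1 CPM in adults. Both stages were free of overlap, in opposite directions, and only the adult change of -0.92 ± 0.28 was called (adjusted p = 0.0353).

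The cyclins differed among themselves more than the helicase subunits did. cyb-1 (chromosome IV, 10735216 to 10737177) encodes a B-type cyclin of mitosis, and it was the member with the most reads, 46073 in all. The DTC libraries held 74.4, 67.8 and 124 CPM at late L3, 155.5, 135 and 102 at early L4, 90.9, 81.7 and 44.9 late in L4 and 35.4, 72.3 and 50.3 in adults. Other cells held 60.4, 42.4 and 78.6 CPM at late L3, 185.5, 144 and 125 at early L4, 248, 249 and 449 late in L4 and 168, 135 and 101 in adults. The DTC level thus peaked at early L4 and that of other cells at late L4, where the groups were farthest apart. The change was -2.12 ± 0.37 at late L4 (adjusted p = 0.000461) and -1.35 ± 0.36 in adults (adjusted p = 0.0179). The late L4 call held without each of the 6 libraries in turn, and the adult call did not hold without DTC replicate 1, DTC replicate 3 or other-cell replicate 1.

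cyb-3, another B-type cyclin, held 59.8, 143 and 52.8 CPM in adult DTC libraries against 259, 256 and 148 CPM in adult other cells, a change of -1.38 ± 0.37 (adjusted p = 0.0173) with no overlap. Without DTC adult replicate 1 or 3 it was not called. cya-1, which encodes cyclin A, had the lowest fitted change of all called members in adults, -3.25 ± 0.82 (adjusted p = 0.013), from 1.298, 10.7 and 0.183 CPM in the DTC fraction and 43.7, 54.6 and 17.9 CPM in other cells. DTC adult replicate 2 held most of the DTC reads of cya-1, and the call was lost without replicate 1. cyb-2.1 and cyb-2.2 are near-identical copies, between which the counting could split reads, so each one's value is uncertain. Their summed level was 29.3, 16.6 and 16.5 CPM in late L3 DTC libraries and 27.5, 55.2 and 6.79 CPM in adult ones, and 5.53, 5.31 and 19.3 CPM at late L3 and 108, 118.6 and 51.9 CPM in adults in other cells. edgeR with all groups and libraries called neither between the fractions at a single stage. At early L4 DESeq2 called cyb-2.1 lower (-1.76, adjusted p = 0.0175), and edgeR on only those groups called cyb-2.1 (adjusted p = 0.0361) and cyb-2.2 (adjusted p = 0.0261) lower. In adults edgeR called cyb-2.1 lower without DTC adult replicate 2 (-2.42, adjusted p = 0.0232).

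cyd-1 (chromosome II, 12980591 to 12993117) encodes cyclin D, the G1 partner of CDK-4. It held 6.15, 7.25 and 0 CPM in late L3 DTC libraries and 21.2, 26.9 and 8.51 CPM in late L3 other cells. At every later stage no library exceeded 2.22 CPM in either fraction. The late L3 groups did not overlap, but the change of -2.07 ± 1.76 was not called (adjusted p = 0.441). cye-1, encoding cyclin E, was likewise low, at 0 to 13.01 CPM. edgeR did not call it at any stage, and DESeq2 called it lower in the DTC fraction at early L4 (-2.65, adjusted p = 0.0399).

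**Figure D3:**
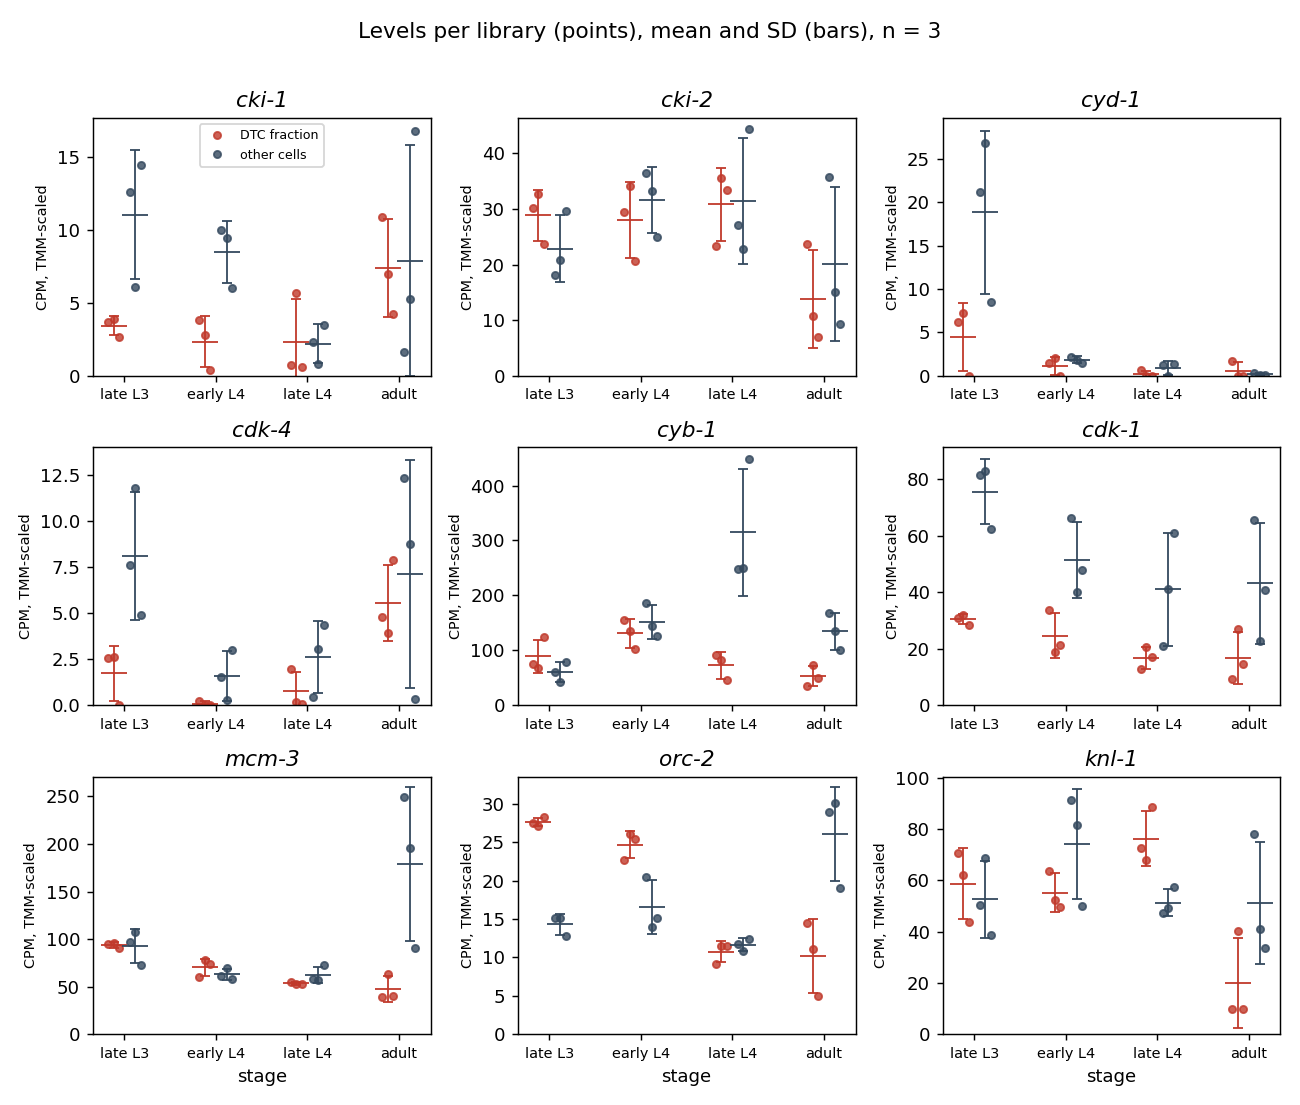
TMM-scaled CPM (vertical axes) per library at each stage (horizontal axes) for 9 genes, red for the DTC fraction and dark blue for other cells, with bars for the mean and SD of 3 libraries and axes that start at 0, so that SD bars are not drawn below it. The cki-2 points of the fractions overlap at every stage, whereas cdk-1 is separate at the 3 larval stages and mcm-3 at late L4 and in adults.

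The inhibitors cki-1 and cki-2 were not called higher in the DTC fraction at any stage. cki-1 (chromosome II, 7811240 to 7812105) encodes the CIP/KIP protein that many somatic cells of the worm need to stop dividing. DTC libraries held 3.72, 3.89 and 2.68 CPM of cki-1 at late L3, 3.84, 2.81 and 0.391 at early L4, 0.758, 5.71 and 0.598 late in L4 and 10.9, 7.02 and 4.22 in adults. Other cells held 12.6, 6.08 and 14.5 CPM at late L3, 10.01, 9.46 and 6.03 at early L4, 2.32, 0.785 and 3.47 late in L4 and 1.66, 5.27 and 16.8 in adults. Every DTC library was below every other-cell library at late L3 and at early L4, and the groups overlapped late in L4 and in adults. The fitted changes were -1.69 ± 0.95 (adjusted p = 0.235), -1.85 ± 0.95 (adjusted p = 0.25), 0.10 ± 0.93 (adjusted p = 0.967) and -0.09 ± 0.92 (adjusted p = 0.991). The late L4 value changed sign with RLE scaling and with DESeq2, to -0.12 in both. In the mean of the stages the change was -0.88 ± 0.47 (adjusted p = 0.165), which DESeq2 called lower (-1.07, adjusted p = 0.0404), as did edgeR without DTC late L4 replicate 2 (-1.28, adjusted p = 0.0374). With standard errors near 1 on the log2 scale, a difference of 2-fold in cki-1 at a single stage was not detectable at this depth and spread.

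cki-2 (chromosome II, 7816499 to 7820281), the second CIP/KIP gene, lies next to cki-1 on the same strand, and it was the more abundant of the pair. DTC libraries held 30.1, 32.7 and 23.73 CPM at late L3, 29.4, 34.1 and 20.6 at early L4, 23.4, 35.5 and 33.5 late in L4 and 23.73, 10.7 and 6.97 in adults. Other cells held 18.2, 20.8 and 29.6 CPM at late L3, 36.5, 33.3 and 25.0 at early L4, 27.1, 22.8 and 44.4 late in L4 and 35.7, 15.1 and 9.40 in adults. The groups overlapped at all 4 stages, and the changes were 0.34 ± 0.47, -0.17 ± 0.46, -0.03 ± 0.46 and -0.54 ± 0.47, with a mean of -0.10 ± 0.23 (adjusted p = 0.835). Per kilobase of exon, the DTC level of cki-2 was 19.5 ± 3.12 CPM (SD, n = 3) at late L3, 18.95 ± 4.64 at early L4, 20.8 ± 4.39 late in L4 and 9.33 ± 5.96 in adults. That placed cki-2 at rank 21, 14, 10 and 24 of the 36 genes from late L3 to adult, a higher place at late L4 with about the same level. The step of cki-2 in DTCs from late L4 to adult was -1.15 ± 0.47 and was not called by edgeR (adjusted p = 0.114). DESeq2 called it (-1.17, adjusted p = 0.0455), as did edgeR without DTC adult replicate 1 (-1.95, adjusted p = 0.0258), where the test for any difference among DTC stages also called cki-2 (adjusted p = 0.0411 against 0.17 with all libraries). On the same scale cki-1 was at 4.24 ± 0.810, 2.90 ± 2.19, 2.91 ± 3.59 and 9.14 ± 4.17 CPM per kilobase, at rank 31, 31, 30 and 25.

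G1 transcription is held down by LIN-35, the worm's Rb protein, and driven or repressed by the E2F factor EFL-1. lin-35 held 58.8, 51.2 and 32.8 CPM in late L3 DTC libraries and 14.2, 12.7 and 16.2 CPM at early L4. The groups did not overlap, and the step of -1.73 ± 0.49 was not called by edgeR (adjusted p = 0.0711) but was by DESeq2 (adjusted p = 0.017) and by edgeR on those groups alone (adjusted p = 0.0213). efl-1 was at 2.04, 6.43 and 4.04 CPM in adult DTC libraries against 14.5, 8.95 and 12.9 CPM in other cells, a change of -1.54 ± 0.58 that edgeR did not call (adjusted p = 0.0833). DESeq2 called it (-1.49, adjusted p = 0.0203), as did edgeR without DTC adult replicate 2 (-2.19, adjusted p = 0.0396).

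Of the mitotic kinases, PLK-1 is the Polo kinase, AIR-1 and AIR-2 are the Aurora A and B kinases, and ZYG-1 starts centriole duplication. plk-1 (chromosome III, 8101348 to 8104069) held 50.6, 71.0 and 30.6 CPM in adult DTC libraries against 185, 141 and 93.7 CPM in other cells, a change of -1.46 ± 0.32 (adjusted p = 0.00603) that held without each of the 6 libraries in turn. Its mean over the stages was -0.89 ± 0.16 (adjusted p = 0.000239). air-1 was separate and lower in the DTC fraction at early and late L4, and its mean of -1.05 ± 0.26 was called by edgeR (adjusted p = 0.00489), which with all groups and libraries called air-1 at 0 single stages. At late L4 it was called lower by DESeq2 (adjusted p = 0.0123), with RLE scaling (adjusted p = 0.0449) and in the fit of those groups alone (adjusted p = 0.0269), and at early L4 by the last of these (adjusted p = 0.0488). In adults DESeq2 called it (adjusted p = 0.0395), as did edgeR without DTC adult replicate 2 (adjusted p = 0.00122) or other-cell adult replicate 3 (adjusted p = 0.0433). air-2 held 11.5, 13.1 and 6.32 CPM in late L4 DTC libraries against 26.6, 32.8 and 60.9 CPM in other cells, a change of -1.96 ± 0.61 (adjusted p = 0.0395). Leaving out any of 5 of those 6 libraries (all but replicate 1 of other cells) ended that call. zyg-1 was not called, with changes from -1.72 ± 0.88 in adults to 1.04 ± 0.86 at late L3.

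At the kinetochore, BUB-1 is a checkpoint kinase and KNL-1 the scaffold on which it sits. bub-1 (chromosome I, 7251941 to 7255223) was called lower in the DTC fraction at 3 stages, the most of any member. It held 81.1, 65.7 and 64.5 CPM in late L3 DTC libraries and 78.0, 78.2 and 74.2 CPM in other cells, and there the groups overlapped. At early L4 the values were 49.1, 42.5 and 65.1 against 123, 120.2 and 95.7 CPM, at late L4 37.1, 49.8 and 34.0 against 72.6, 79.2 and 147 CPM, and in adults 32.0, 35.4 and 30.8 against 142, 134 and 71.1 CPM. Those 3 stages were free of overlap, with changes of -1.11 ± 0.29 (adjusted p = 0.015), -1.3 ± 0.29 (adjusted p = 0.00464) and -1.82 ± 0.30 (adjusted p = 0.000967). The late L4 and adult calls held without each of their 6 libraries, and the early L4 call was lost without replicate 1 or 2 of either fraction. The mean change of bub-1 was -1.09 ± 0.15 (adjusted p = 8.5e-06), with the DTC libraries lower and separate at 3 of 4 stages.

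sep-1, which encodes separase, the protease that parts sister chromatids, held 49.9, 36.7 and 40.3 CPM in early L4 DTC libraries against 128, 103 and 103.5 CPM in other cells, a change of -1.40 ± 0.37 (adjusted p = 0.0167). That call was lost without DTC replicate 2 or other-cell replicate 1. The DTC libraries of sep-1 were below those of other cells at all 4 stages, and its mean change was -1.08 ± 0.19 (adjusted p = 0.000166). fzy-1, the CDC20 activator of the anaphase-promoting complex, was lower at late L4 at -1.29 ± 0.40 (adjusted p = 0.0385), a call lost without any of 5 of the 6 libraries (all but replicate 1 of other cells). emb-30, a subunit of that complex, was not called and stood at 84.4, 87.1 and 92.4 CPM in late L3 DTC libraries and 61.6, 69.3 and 59.1 CPM in other cells.

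knl-1 (chromosome III, 8250632 to 8253943) stood on the other side at late L4, as did the scarce cdk-2. Its late L4 DTC libraries held 72.5, 67.9 and 88.6 CPM, above the 47.4, 49.1 and 57.4 CPM of other cells, although the change of 0.57 ± 0.44 was not called (adjusted p = 0.412). In adult DTC libraries it held 9.92, 40.5 and 10.1 CPM. The step of -1.92 ± 0.46 from late L4 to adult (adjusted p = 0.00822) was the 1 called step of the 36 genes between successive DTC stages, where 12.8% of all genes were called and 6.12% were called lower. It held without each of the 6 libraries and missed the threshold when the 2 groups were fitted alone (adjusted p = 0.0582).

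The fold changes of the 6 other adult calls ran from -0.92 to -1.36, for cdk-1, cyb-1, orc-2, rnr-2, sep-1 and cdc-25.1. In the mean of the stages the called genes not given above were mcm-5 (-0.94 ± 0.22, adjusted p = 0.00273), air-2 (-0.85 ± 0.30, adjusted p = 0.0343), pcn-1 (-0.78 ± 0.21, adjusted p = 0.00706), cyb-1 (-0.78 ± 0.18, adjusted p = 0.0023), fzy-1 (-0.75 ± 0.20, adjusted p = 0.00684) and mcm-7 (-0.71 ± 0.16, adjusted p = 0.00248). The remaining 4, cyb-3, mcm-6, mcm-4 and mcm-3, lay between -0.64 and -0.48. The mean was carried in part by the adults: without them 12 of 36 genes were called, 11 lower and 1, orc-2, higher (0.45, adjusted p = 0.0182). mcm-3, mcm-4, mcm-6, mcm-7 and pcn-1 were no longer called then. With all 4 stages, RLE scaling moved the median of all genes in the mean from -0.14 to -0.33. It also called mcm-2, rnr-1, rnr-2, cye-1, cya-1 and cyb-2.2 lower.

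Across stages the DTC levels of the 36 genes were mostly highest at late L3, and those of other cells in adults. The highest of the 4 DTC means fell at late L3 for 27 of 36 genes, and the highest of the 4 other-cell means in adults for 25. Over all 8 groups 21 genes had their highest mean in adult other cells and 14 their lowest in adult DTCs. Single libraries stood high or low across the list: replicate 3 of late L4 other cells was the highest of its group for 30 genes, replicate 1 of adult other cells for 26 and replicate 2 of adult DTCs for 25. Replicate 3 of adult other cells was the lowest of its group for 27 genes.

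**Figure D4:**
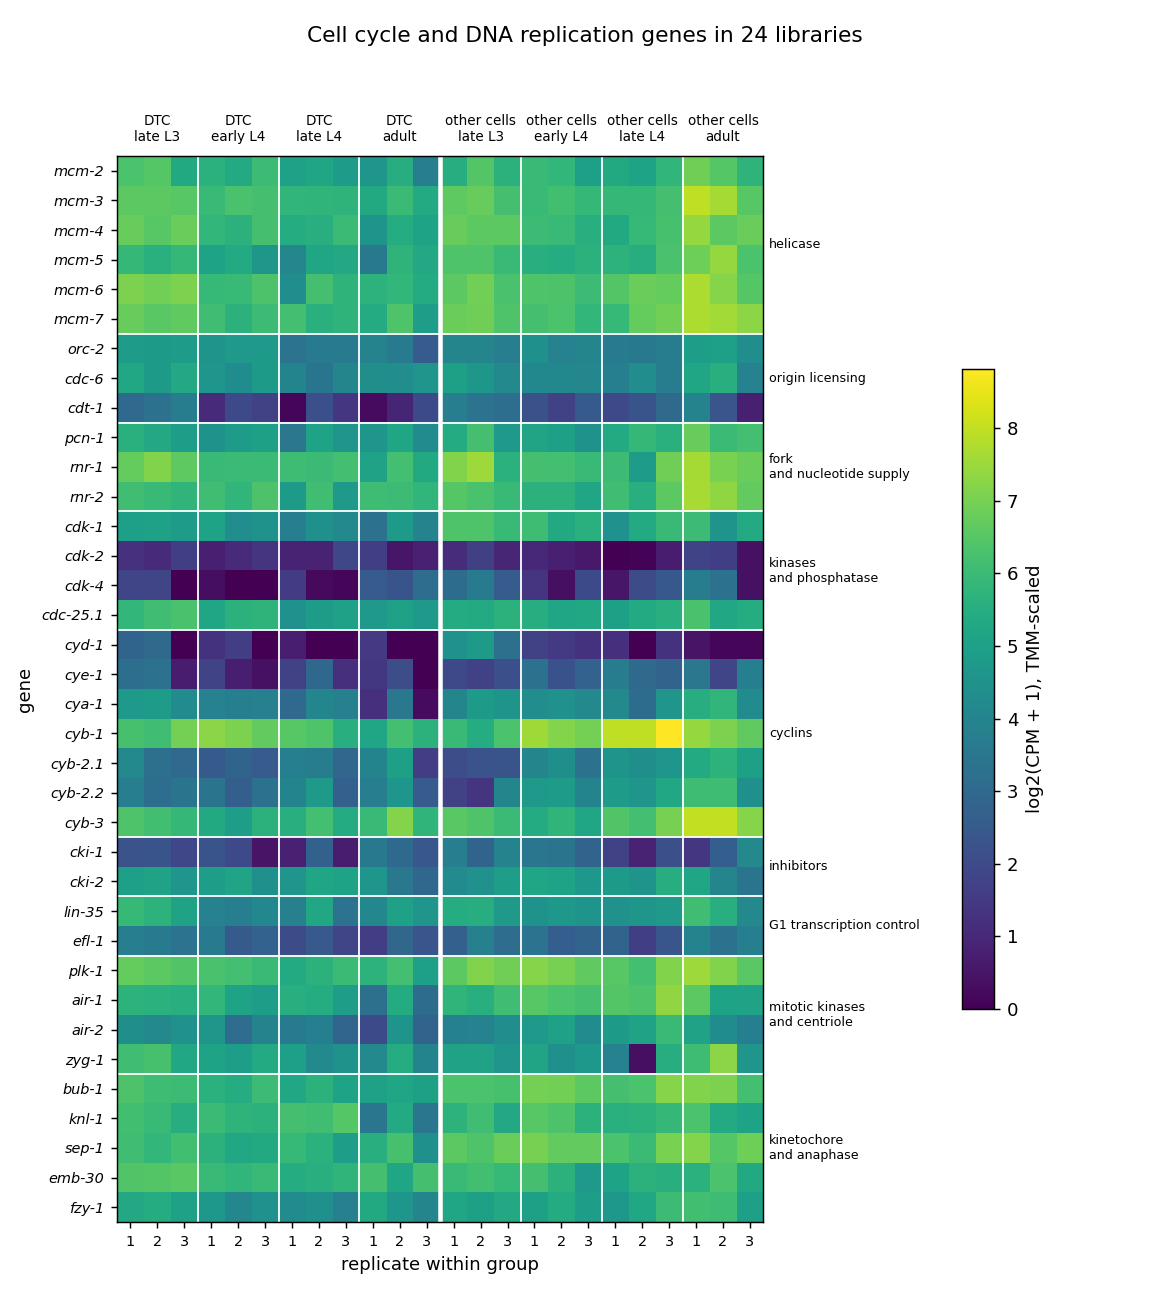
Levels of the 36 genes (rows, grouped by role) in 24 libraries (columns, by group and replicate) as log2(CPM + 1), with the color scale running from 0 in dark blue to the highest level in yellow. The adult columns of other cells are the brightest for most helicase genes, cyb-1 is brightest at late L4 in other cells, and cdk-2, cdk-4 and cyd-1 are dark in most libraries.

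A test for any difference among the 4 DTC stages called 11 of 36 genes, 30.6%, against 37.2% of all tested genes, so the share in the list lay below that of genes at large. They were mcm-2, mcm-3, mcm-4, mcm-6, orc-2, cdc-6, cdc-25.1, cyb-1, lin-35, bub-1 and knl-1. Of these, mcm-4 (adjusted p = 0.00152), mcm-6 (adjusted p = 0.00741), orc-2 (adjusted p = 0.0033) and cdc-25.1 (adjusted p = 0.00196) were called without each of the 12 DTC libraries in turn. The count fell to 5 without DTC adult replicate 1 or 3, to 6 without DTC late L3 replicate 1, and to 7 without DTC early L4 replicate 2 or 3. From late L3 to early L4, 0 of 36 genes were called by edgeR, against 2.00% of all genes, although 34 of 36 changes were below 0. At that step 7 genes had an unadjusted p under 0.05, and DESeq2 called 1, lin-35. From early to late L4, 0 were called again, against 5.57% of all genes, with 4 under an unadjusted p of 0.05 and 1, orc-2, called by DESeq2. Without DTC late L4 replicate 2 that count was 1. For the step to adult, the count was 2 without DTC adult replicate 1 or DTC late L4 replicate 2 and 4 without DTC adult replicate 2.

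Among the stages of other cells 7 of 36 genes were called, 19.4%, against 15% of all tested genes. They were mcm-3, mcm-4, mcm-7, rnr-2, cyb-1, cyb-2.1 and cyb-3, and cyb-1 (adjusted p = 0.00138), cyb-2.1 (adjusted p = 0.00754) and cyb-3 (adjusted p = 0.00123) were called without each of the 12 libraries. The count was 3 without other-cell adult replicate 1 or 2, and 4 without early L4 replicate 3. From late L3 to early L4 edgeR called 0 of 36, against 0.361% of all genes, with 6 under an unadjusted p of 0.05 and 2, cyb-1 and cyb-2.1, called by DESeq2. Without late L3 replicate 3, the library that stood apart, edgeR called 2, cyb-1 and cyb-2.2. From early to late L4 it called 0, against 2.09%, with cyb-1 and cyb-3 both under an unadjusted p of 0.05 and both called by DESeq2, 2 in all. From late L4 to adult 4 were called, against 6.71% of all genes, 2.05% higher and 4.65% lower. mcm-3 (1.51 ± 0.29, adjusted p = 0.0068), mcm-4 (1.11 ± 0.29, adjusted p = 0.0314) and cyb-3 (1.22 ± 0.36, adjusted p = 0.0484) rose, and cyb-1 fell (-1.23 ± 0.36, adjusted p = 0.0455). The count was 2 without other-cell adult replicate 1, 0 without adult replicate 2, and 1 without adult replicate 3 or any of the late L4 libraries.

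The difference between the fractions itself changed with stage for 9 of 36 genes, 25%, against 13.9% of all tested genes. These were the helicase genes mcm-3, mcm-4, mcm-6 and mcm-7, the licensing gene orc-2, the phosphatase gene cdc-25.1, the cyclins cyb-1 and cyb-2.1, and bub-1. For orc-2, cdc-25.1 and cyb-2.1 the late L3 DTC libraries were all above and the adult ones all below those of other cells. The adult groups of cyb-2.1 nearly touched, with DTC replicate 2 at 31.28 CPM and other-cell replicate 3 at 31.29 CPM. cyb-1 was called under every alternative tried and without each of the 24 libraries (adjusted p from 0.000159 to 0.0204), and mcm-3, mcm-4 and orc-2 also without each of the 24 libraries. cki-1 and cki-2 were not among the 9.

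A longer list of 124 cell cycle genes, of which all but pold-2 and smc-1 matched a gene ID, was tested with the same edgeR model. At late L3 6 were called, all higher in the DTC fraction, where 6.03% of all tested genes were called higher. At early L4 6 were higher and 5 lower, against 9.40% of all genes higher and 1.65% lower, and at late L4 4 were higher and 9 lower, against 9.19% and 2.61%. In adults 54 were lower, 44.3% of those tested against 5.12% of all genes, and 0 higher. Their median log2 fold change was 0.29, -0.20, -0.52 and -1.24 at the 4 stages. In adults the lower genes included 17 of 30 in replication, 6 of 12 in cohesin and condensin, 10 of 21 in the kinetochore and checkpoint, 9 of 22 in the spindle, centrosome and cytokinesis, 3 of 10 in the anaphase-promoting complex and 9 of 27 in G1, G2 and damage control. In the mean of the stages 44 were lower and 8 higher, against 14.3% of all genes lower and 16.3% higher. The lowest were cdc-25.2 (-1.81 ± 0.62, adjusted p = 0.0319), a phosphatase of the CDC25 family, csc-1 (-1.63 ± 0.28, adjusted p = 0.000188), of the chromosomal passenger complex, and pri-1 (-1.44 ± 0.21, adjusted p = 3.21e-05), a DNA primase subunit. The highest were the cohesin kleisin gene coh-1 (0.99 ± 0.29, adjusted p = 0.0146), the SCF ubiquitin ligase subunit gene skr-1 (0.90 ± 0.11, adjusted p = 2.39e-06) and the F-box gene lin-23 (0.76 ± 0.14, adjusted p = 0.00043).

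In DTC libraries the mean summed levels of the germline markers and of the 36 genes were both lower at each later stage, the markers by a larger factor from late L3 to adult. The last step of the 36 genes, from late L4 to adult, lay within the SD of the adult sums. Their median log2 fold change at that step was 0.02, with 19 genes above 0 and 17 below. In other cells the 2 TMM-scaled sums differed in opposite directions at each larval step, and both were higher in adults than at late L4. The larval directions depended on the scaling. Without TMM factors both mean sums were higher at early L4 than at late L3, and lower at late L4 than at early L4. The 36 genes then stood at 2019, 2294 and 2044 CPM and the markers at 2584, 3930 and 2224 CPM. In DTC libraries the germline markers summed to 3228 ± 94.3 CPM (SD, n = 3) at late L3, 2319 ± 183 at early L4, 1420.0 ± 220.5 late in L4 and 982 ± 284 in adults, while the 36 genes went from 1784 ± 103.5 to 1263 ± 79.1, 1047 ± 117 and 978 ± 317 CPM. In other cells the markers stood at 2216 ± 579, 2743 ± 327, 2020.0 ± 307.5 and 2821 ± 816 CPM and the 36 genes at 1773 ± 203, 1602 ± 244, 1865 ± 557 and 2671 ± 791 CPM. The 36 genes divided by the germline markers gave 0.952, 1.03 and 0.989 in the adult DTC libraries and 0.923, 1.02 and 0.892 in the adult libraries of other cells, where the groups overlapped. At late L3 that ratio was 0.585, 0.571 and 0.504 in DTC libraries and 0.981, 1.01 and 0.541 in other cells, the last from the library that stood apart. At early L4 it was 0.515 to 0.572 in DTCs and 0.560 to 0.623 in other cells, and at late L4 it was 0.801, 0.847 and 0.597 in DTCs and 0.863, 0.810 and 1.06 in other cells. The germline gene glp-1, the Notch receptor through which germ cells read the DTC signal, averaged 121.6 CPM in late L3 DTC libraries and 34.3 CPM in adult ones, against 47.2 and 90.4 CPM in other cells. The germline markers were not uniform at late L3. The largest DTC excesses were those of glh-1 (1111 against 707 CPM) and pgl-1 (373 against 95.3 CPM). On average pgl-3, mex-5, him-3, htp-1, htp-3, syp-1, syp-3 and prg-1 were lower in late L3 DTCs than in other cells, the rest higher. The part of germline RNA in the differences between the fractions was not tested.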

How the data were processed

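The deposited table holds raw whole-number read counts per gene, which the authors made, per the submitters' processing notes, with FastQC, cutadapt, Bowtie2 and HTSeq on the ce11 build. No source used here gives tool versions or the strand setting of counting, so reads of overlapping genes on opposite strands could be mixed; another gene covered at most 5.1% of any member's exons. Per the labels' protocols, libraries were made from 1 ng of cDNA with a Nextera XT kit. All 24 columns were mapped to samples by name. Gene positions and exon lengths came from the WBcel235 annotation of Ensembl, the same assembly as ce11.

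Counts were filtered with filterByExpr over the 8 groups, scaled by TMM and fitted in edgeR 4.0.16 (R 4.3.3) as 1 quasi-likelihood model with 8 group means on all 24 libraries, with adjusted p over all 16887 tested genes. The model has 1 spread estimate for all groups (common biological variation 0.835 as a coefficient), while root mean square log2 deviations per library ran from 0.645 to 1.43. Standard errors are the fold change over the root of F. Whether the 3 samples of a group are separate cultures is not said in the labels; the p-values reflect the spread among them, which may be technical. No replicate pair agreed within sampling noise (lowest chi-square per gene 19.74). The test was checked on simulated counts. Alternatives were RLE scaling, no filter, DESeq2 1.42.0, a replicate block, only the groups compared and each library left out, and, chosen after seeing the data, the larval stages alone. Summed levels were also taken without TMM factors. Same-numbered libraries deviated together, with every correlation over 0.1, in 2 of 28 pairs of groups; 1 of these was late L3 DTCs with late L3 other cells, where the replicate block, a hint from the data and not from the labels, left the count of called members at 0.

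The 36 members, the further cell cycle genes and the marker lists were chosen with earlier results of these data known. Genes named by rule were cki-1 and cki-2, up to 12 called members per comparison by size of change, and the 3 highest and 3 lowest called genes of the further list; other members are named to account for the list. No sequence is shown.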

Additional observations from a re-analysis of the deposited data

Results flagged for a closer look

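For 9 genes the difference between the DTC fraction and other cells was itself different among the 4 stages, by edgeR's quasi-likelihood test of the 3 interaction contrasts, with p adjusted over all 16887 genes. The adjusted p was 0.00555 for mcm-3, 0.00722 for mcm-4, 0.0352 for mcm-6 and 0.0344 for mcm-7, which at late L3 changed by 0.02, 0.04, 0.41 and -0.06 on the log2 scale and in adults by -1.91, -1.91, -1.59 and -1.85. For orc-2 (adjusted p = 0.0154), cdc-25.1 (adjusted p = 0.0347) and cyb-2.1 (adjusted p = 0.0495) the late L3 changes were 0.95, 0.60 and 1.56 and the adult ones -1.35, -0.92 and -1.36, with every DTC library above other cells at the first stage and below them at the last. The adult separation of cyb-2.1 was marginal, at 31.28 CPM in DTC replicate 2 against 31.29 CPM in other-cell replicate 3. For cyb-1 (adjusted p = 0.00584) the change went from 0.55 at late L3 to -2.12 at late L4, and for bub-1 (adjusted p = 0.039) from -0.12 at late L3 to -1.82 in adults. Leaving out 1 library at a time ended the call in 21 of 24 fits for cyb-2.1, in 16 for mcm-6, 15 for cdc-25.1, 14 for mcm-7 and 14 for bub-1. Germline markers also changed sides, at 1.46 times other cells at late L3 and 0.348 times in adults, and their part in these differences was not tested.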

How the results depend on the processing

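With RLE scaling, no filter, the replicate block, DESeq2 and fits of only the groups compared, the median log2 fold change of the 36 genes stayed below 0 at late L4 and in adults, whereas at late L3 it went from 0.11 to -0.19 with RLE scaling and with DESeq2 and to -0.03 in the fit of only those groups. The numbers below are counts of called members, beside the counts in the report. RLE scaling gave 1 for DTCs against other cells at late L3, 10 at late L4, 6 for any difference among DTC stages, 2 for late L4 to adult in other cells and 4 for the change of the difference with stage; it shifted the all-gene median from -0.03 to -0.34 at late L3, from -0.35 to -0.63 at early L4 and from -0.14 to -0.37 at late L4. With no filter on low counts the counts were 1 at early L4, 2 at late L4, 5 among DTC stages, 2 for the adult step of other cells and 3 for the change with stage. DESeq2 gave 2, 8 and 16 for the larval stages in order, 26 in the mean, 1, 1 and 2 for the DTC steps, and 2 and 2 for the larval steps of other cells. Fitting only the groups compared gave 1 at late L3, 6 at early L4, 2 in adults, 3, 1 and 0 for the DTC steps and 0 for the adult step of other cells, with 347 of all genes called in adults against 2248. The larval stages alone, chosen after seeing the data, gave 3 among DTC stages, 2 among those of other cells and 2 for the change with stage. Summed levels of the 36 genes, the germline markers and the oocyte markers were also taken without TMM factors. Their group means moved by the SD of the group or more in 10 cases and by less in 14.

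Leaving out 1 library at a time gave 0 to 1 at late L3, 0 to 3 at early L4, 2 to 5 at late L4, 8 to 23 in adults and 14 to 25 in the mean. It gave 5 to 16 among DTC stages, 0, 0 to 1 and 1 to 4 for the DTC steps, 3 to 10 among stages of other cells, 0 to 2, 0 and 0 to 2 for their steps, and 4 to 14 for the change with stage. The count was 1 at late L3 without other-cell late L3 replicate 3, 0 at early L4 without DTC early L4 replicate 2 or other-cell early L4 replicate 1, 2 at late L4 without DTC late L4 replicate 1, 25 in the mean without DTC adult replicate 2 and 8 in adults without DTC adult replicate 3. For the change with stage it was 14 without DTC adult replicate 2 and 4 without DTC adult, other-cell adult, other-cell late L3 or other-cell early L4 replicate 1. Of the 18 adult calls 7 held without each library and 2 under every alternative; of the 16 in the mean 14 and 9 did. The inhibitors changed sign where they lay near 0. cki-1 at late L4 went to -0.12 with RLE scaling and with DESeq2, and to between -1.65 and 0.52 with a library left out, and in adults to between -0.69 and 0.97. cki-2 went to 0.04 at late L4 when only those groups were fitted and to 0.03 in the mean of the larval stages, and with a library left out ranged from -0.60 to 0.06 at early L4, from -0.32 to 0.13 at late L4 and from -1.31 to 0.05 in adults. The cause of these changes was not tested.

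Replicate numbers did not pair the libraries in general: 9 of 24 deviated most like those of their own number, and same-numbered correlations went down to -0.261. The replicate block left 18 calls in adults and 17 in the mean and moved 1 count by over 1.5 times, the adult step of other cells, from 4 to 2. Depth limits the scarcest genes, cdk-2, cdk-4, cyd-1 and cye-1, the most. The planned description of promoter motifs was not run, as no promoter sequence was used here.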
